A study of Homo sapiens with 21 samples.

Results

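This report describes 31 genes of sterol and fatty acid synthesis in human cells labelled HepG2, a line derived from a liver tumour, that were exposed to coumarin for 6 h. Coumarin is a plant lactone used as a fragrance and flavouring. The members were found by symbol in the deposited gene count table: 17 enzymes that lead from acetyl units to cholesterol, 5 genes of the sterol-sensing system and sterol transfer, and 9 genes of fatty acid and glycerolipid synthesis. All 31 were present among 58735 genes, and all 31 passed the filter on low counts that 16196 genes passed. RNA was sequenced from 21 cultures, 3 at each of 0.001, 0.01, 0.1, 1, 10 and 100 µM coumarin and 3 untreated controls at 0 µM, all in the same cell line with no genetic change named in the labels. The submitters describe the 3 libraries of a group as biological replicates.

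Cells sense their own sterol content through SREBP transcription factors. These are held in the endoplasmic reticulum by SCAP and INSIG proteins when sterols are plentiful, and are carried to the Golgi and cleaved when sterols are scarce. The released fragments bind sterol regulatory elements in promoters, often beside sites for NF-Y and SP1, and raise the genes of the mevalonate, cholesterol and fatty acid pathways. In the liver the same genes supply bile acids and lipoproteins, and INSIG1 is itself one of the targets, which closes a feedback loop.

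The libraries held 27984517 to 43704155 counted reads. The label of the cell line was checked against 12 hepatocyte genes: none reached a mean of 1 CPM, the reads of a gene scaled to the library's total, and ALB, SERPINA1 and FGB had no read in any library. The summed level of the 12 was 0.0269 to 0.202 CPM over the libraries. The keratins KRT7, KRT8 and KRT18 (1212, 2325 and 898 CPM on average) and the collagen COL3A1 (936 CPM) were abundant. Of 6 genes of simple epithelium 3 reached 1 CPM, with KRT19 at 1 read, EPCAM at no read and CDH1 at 0.663 CPM, and of 6 mesenchymal genes 5 did, with COL1A2 at 1 read. The liver genes of the list were at or near 0, and the cells are called here by their label only. The summed hepatocyte level was 0.0589 to 0.137 CPM in the controls and 0.0572 to 0.0886 CPM at 100 µM, at or near 0 in both. The summed level of the 6 epithelial genes was 4293 to 4563 CPM in the controls and 4056 to 4210 CPM at 100 µM. That of the 6 mesenchymal genes was 1383 to 1425 and 1315 to 1372 CPM. Both sums were lower at 100 µM without overlap, and both consist mostly of the keratins and the collagen named above. Of all genes tested, 13.9% had all libraries at 100 µM below all controls, in CPM scaled by edgeR's TMM factors. The part of the marker genes in the results at 100 µM was not tested.

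The promoters shown next belong to the 2 members whose level differed among the doses in tests over all groups (INSIG1 and ELOVL6), to MVD, which was called at 100 µM, and to SREBF2, the only member with a match to the sterol regulatory element searched here. Each is the 250 bases before the annotated gene start in RefSeq (GRCh38.p14), read 5′ to 3′ on the gene's strand. Capitals mark matches, on either strand, to the sterol regulatory element TCACNCCAC, the NF-Y box CCAAT and the E-box CACGTG.
INSIG1 (chr7:155297628-155297877, + strand): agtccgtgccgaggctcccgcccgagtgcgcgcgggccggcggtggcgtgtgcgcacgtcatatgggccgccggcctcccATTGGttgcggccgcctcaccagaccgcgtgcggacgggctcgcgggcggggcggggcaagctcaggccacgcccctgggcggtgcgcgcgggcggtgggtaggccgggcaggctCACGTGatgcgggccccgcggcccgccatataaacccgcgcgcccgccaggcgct
SREBF2 (chr22:41832855-41833104, + strand): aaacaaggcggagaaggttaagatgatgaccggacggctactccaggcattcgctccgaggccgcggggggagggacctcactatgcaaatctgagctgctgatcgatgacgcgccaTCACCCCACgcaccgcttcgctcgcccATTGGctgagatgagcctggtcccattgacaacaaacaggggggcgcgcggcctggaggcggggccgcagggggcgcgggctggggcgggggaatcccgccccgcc
MVD (chr16:88663092-88663341, - strand): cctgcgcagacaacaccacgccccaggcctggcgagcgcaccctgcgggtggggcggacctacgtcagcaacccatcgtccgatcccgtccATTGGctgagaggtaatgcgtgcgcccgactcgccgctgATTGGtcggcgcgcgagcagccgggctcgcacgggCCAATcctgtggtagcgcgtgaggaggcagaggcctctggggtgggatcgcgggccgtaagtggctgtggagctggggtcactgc
ELOVL6 (chr4:110198616-110198865, - strand): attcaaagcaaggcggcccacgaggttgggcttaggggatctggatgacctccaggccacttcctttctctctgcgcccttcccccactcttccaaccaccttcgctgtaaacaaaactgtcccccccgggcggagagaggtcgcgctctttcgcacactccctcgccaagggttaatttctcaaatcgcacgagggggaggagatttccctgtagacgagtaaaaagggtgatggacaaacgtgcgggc

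The INSIG1 stretch holds 1 NF-Y box and 1 E-box, that of MVD holds 3 NF-Y boxes, and that of ELOVL6 holds no match to these 3 motifs. In SREBF2 the sterol element starts 133 bases before the gene start. Over windows that reach 50 bases past the start, 28 members had an entry, with 40 windows in all, and a gene was counted when any of its windows held the motif. The NF-Y box was in 21 of the 28 (75%) and in 39.7% of 27305 genes. Those genes were not limited to ones that passed the filter on low counts, whereas every member had passed it. The GC box GGGCGG, the core of SP1 sites, was in 27 (96.4%) and in 48.3% of genes, the E-box in 4 (14.3%) and in 8.77%, and the sterol element in 1 (3.57%) and in 1.39%. FASN, FDFT1 and SQLE had no entry. A match is a run of letters and does not show binding.

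Compared per length of transcript, the members spanned more than 2 orders of magnitude in FPKM, the length-scaled unit that the authors deposited. The highest was SCD, the desaturase that makes monounsaturated fatty acids, with a lowest, median and highest FPKM over the 21 libraries of 158.5, 164.9 and 177.3. ACLY, which makes cytosolic acetyl-CoA from citrate, ranged from 123.8 to 140.5 FPKM around a median of 132.4. FASN, the fatty acid synthase, ranged from 65.8 to 81.5 around 70.8. The 3 ranges did not overlap one another, so the order SCD, ACLY, FASN held in all libraries.

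At the low end stood TM7SF2, a reductase of the sterol ring, at 0.86 to 1.32 FPKM around a median of 1.09 (91 to 176 reads). ACSS2, which makes acetyl-CoA from acetate, was at 2.56 to 3.56 FPKM around 2.96. LPIN1, a phosphatidate phosphatase of triglyceride synthesis, was at 3.46 to 4.01 FPKM around 3.77, and its range overlapped that of ACSS2. The percentile of the mean FPKM among all genes tested was 98.6 for SCD, 47.6 for ACSS2 and 32.1 for TM7SF2. Neighbours in the middle of the order mostly overlapped, for example NSDHL (22.2 to 28.2 FPKM) and SQLE (22.7 to 26.0 FPKM).

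**Figure D1:**
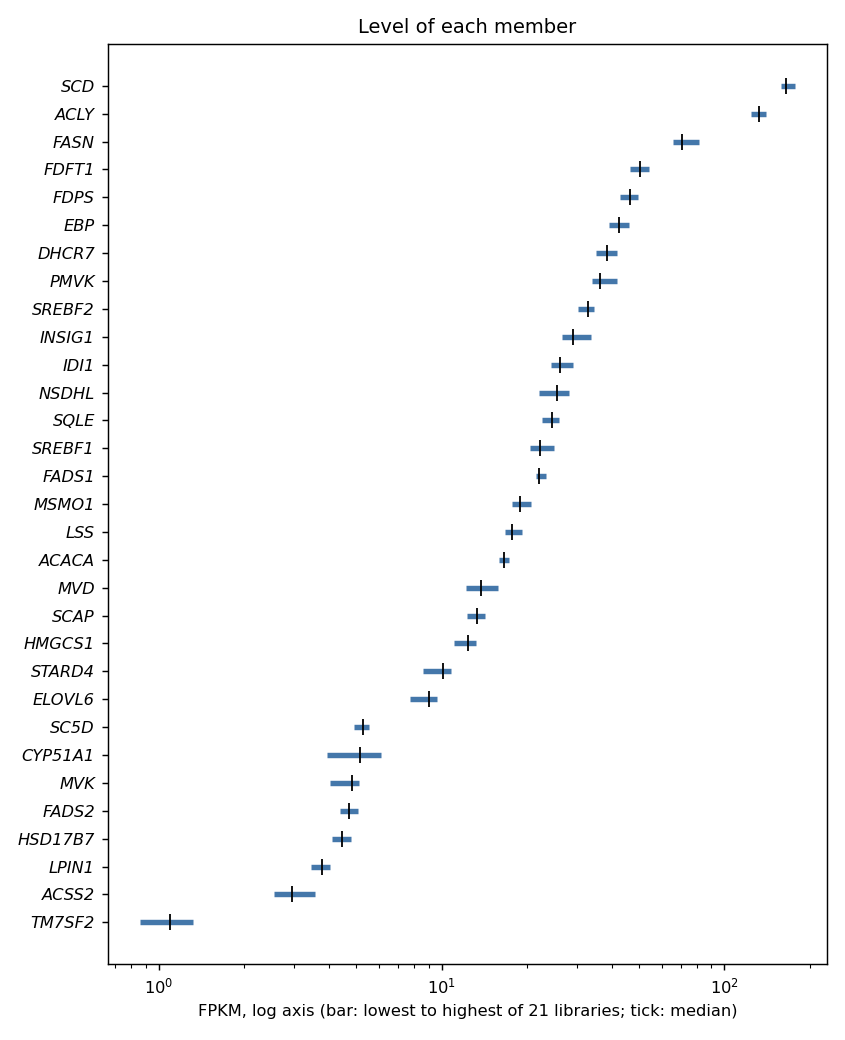
Level of each member in FPKM on a log axis, with a bar from the lowest to the highest of 21 libraries and a tick at the median. SCD, ACLY and FASN lie apart at the top, with medians of 164.9, 132.4 and 70.8, and TM7SF2 lies lowest at 1.09.

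The comparison of each dose with the untreated cells asks which of these genes moved with coumarin and at which dose. At 0.001, 0.01, 0.1, 1 and 10 µM no member passed an adjusted p of 0.05 (edgeR's quasi-likelihood test, Benjamini-Hochberg adjustment over all 16196 genes). The share of all genes called was 0% at each of the 4 lowest doses and 0.321% at 10 µM (0.241% higher and 0.0803% lower), so few or no genes of any kind were called there. At an unadjusted p under 0.05 there were 2, 6, 3, 5 and 7 of the 31 members from the lowest of these doses to 10 µM. The shares of all genes at that threshold were 8.21%, 8.74%, 6.09%, 3.76% and 12%. DESeq2 called 1 member, INSIG1, at 1 µM and at 10 µM, and none at the other 3 doses, and limma on FPKM called none at these 5 doses. In bulk RNA, a smaller share of cells with a transcript and less of it per cell cannot be told apart.

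At 100 µM, 3 of 31 members were higher (MVD, FASN and MVK) and 1 was lower (ELOVL6), while 8.58% of all genes were called, 3.77% higher and 4.82% lower. The largest of these 4 changes was -0.22 on the log2 scale. An unadjusted p under 0.05 was found at this dose for 10 of the 31 members and for 23.1% of all genes. The median log2 change of the members was 0.04 at 100 µM, against 0.00 over all genes tested, and it lay between 0.01 and 0.05 at every dose. The 6 comparisons share their 3 control libraries, so the values at different doses are not independent.

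At 100 µM the 95% interval of the log2 fold change lay within 0.25 of no change for 25 of the 31 members and within 0.5 for 30. The exception was TM7SF2, the least abundant, whose interval ran from 0.01 to 0.55. The 12 libraries at 0.001 to 1 µM were also pooled to gain precision. Against the controls, all 31 intervals then lay within 0.25 and no member was called (0% of all genes). An unadjusted p under 0.05 was found for 5 members and for 7.45% of all genes. The smallest of the 5 belonged to MVK (0.14, SE 0.05, adjusted p = 0.639).

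Other comparisons left the controls out. Against the pooled libraries at 0.001 to 1 µM, no member was called at 10 µM (0.222% of all genes), where PMVK, the phosphomevalonate kinase, came closest (0.12, SE 0.04, adjusted p = 0.288). No member's slope over log10 dose among the treated libraries passed the test (4.45% of all genes were called, 1.93% rising and 2.52% falling). For the slope, 2 members and 16.1% of all genes had an unadjusted p under 0.05.

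**Figure D2:**
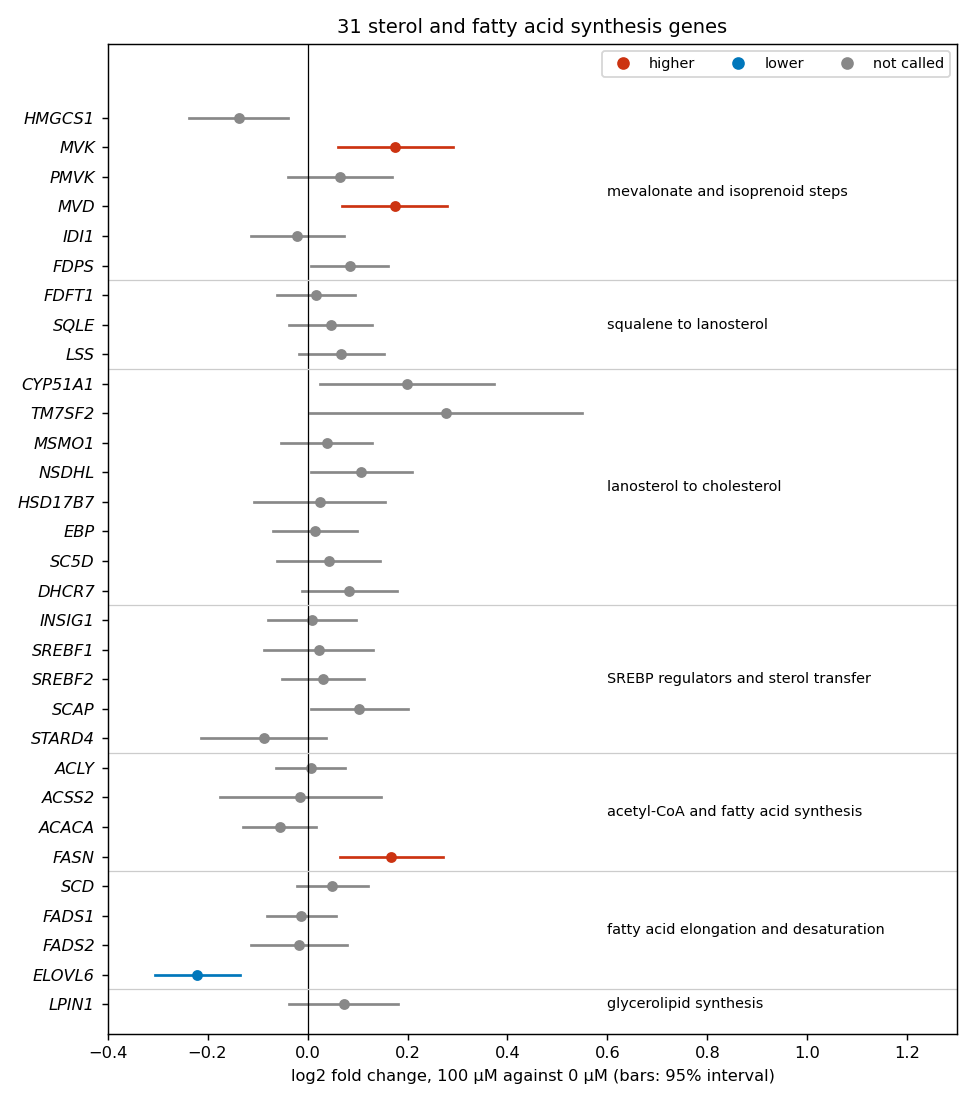
Log2 fold change at 100 µM against 0 µM for the 31 members by role, with 95% intervals, 3 libraries a group. MVK, MVD and FASN (red) lie above zero and ELOVL6 (blue, -0.22) below it, and the grey genes were not called.

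ELOVL6 elongates palmitate, the product of fatty acid synthase, to stearate. Its level in the 3 controls was 67.2, 66.2 and 63.9 CPM, and at 100 µM it was 55.0, 57.1 and 57.2 CPM (CPM scaled by edgeR's TMM factors here and below). The 100 µM libraries lay below the controls with a gap, and also below all 18 other libraries, of which the lowest was at 62.7 CPM. That pattern was seen in 3.31% of all genes tested and in no other member. The opposite one, above all 18, was seen in 2.41% of all genes and in no member.

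The log2 change of ELOVL6 at 100 µM was -0.22 (SE 0.04, adjusted p = 0.000559), a level 0.858 times that of the controls. Against the 12 pooled libraries at 0.001 to 1 µM it was -0.20 (SE 0.03, adjusted p = 7.03e-05). At 10 µM the gene stood at 67.0, 64.0 and 64.6 CPM, within the range of the lower doses, so the lower level was seen at the highest dose. Its slope over log10 dose among the treated libraries was -0.02 log2 units per step of 1 in log10 dose (adjusted p = 0.0592) and did not pass. The test of any difference among the 7 groups gave an adjusted p of 0.0034 and that among the 6 treated groups 0.00285. Without replicate 1 at 100 µM these became 0.101 and 0.0814, whereas the comparison with the controls passed without each library in turn (adjusted p 0.000241 to 0.0096).

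INSIG1 encodes the endoplasmic reticulum protein that retains SCAP and also aids the breakdown of the rate-limiting reductase of cholesterol synthesis. Its 3 controls were close together at 97.7, 98.7 and 99.4 CPM. The libraries read 101.7, 95 and 97.6 CPM at 0.001 µM, 103.4, 100.4 and 107.5 CPM at 0.01 µM, and 104.9, 104.6 and 114.0 CPM at 0.1 µM. At 0.01 and 0.1 µM all 3 treated libraries were above all 3 controls.

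The level of INSIG1 was highest at 1 µM, with 112.8, 112.8 and 120.0 CPM. It was 105.2, 109.8 and 114.9 CPM at 10 µM, and 100.3, 96.0 and 101.1 CPM at 100 µM. The 100 µM libraries overlapped the controls and lay below every library at 0.1, 1 and 10 µM. Groups with all 3 treated libraries above the controls were found for 7.35%, 4.46%, 4.26% and 8.78% of all genes at 0.01, 0.1, 1 and 10 µM.

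The difference among the 7 groups passed for INSIG1 (adjusted p = 0.000749), as did that among the 6 treated groups (adjusted p = 0.00159); 4.65% and 4.43% of all genes passed these 2 tests, and INSIG1 and ELOVL6 were the 2 of 31 members in each. Against the controls alone, the log2 fold change was 0.13 at 0.1 µM (SE 0.04, adjusted p = 0.687), 0.23 at 1 µM (SE 0.04, adjusted p = 0.152) and 0.16 at 10 µM (SE 0.04, adjusted p = 0.0904). None of these passed, although at 1 µM INSIG1 had the smallest unadjusted p of all 16196 genes (rank 1). At 100 µM the value was 0.01 (SE 0.04, adjusted p = 0.935), with a 95% interval of -0.08 to 0.10. A slope with log10 dose among the treated libraries was not called (0.01 log2 units per step of 1 in log10 dose, adjusted p = 0.432). Both tests among groups passed without each of the 21 libraries in turn, with adjusted p-values of 0.000178 to 0.0035 and 0.000433 to 0.00844.

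**Figure D3:**
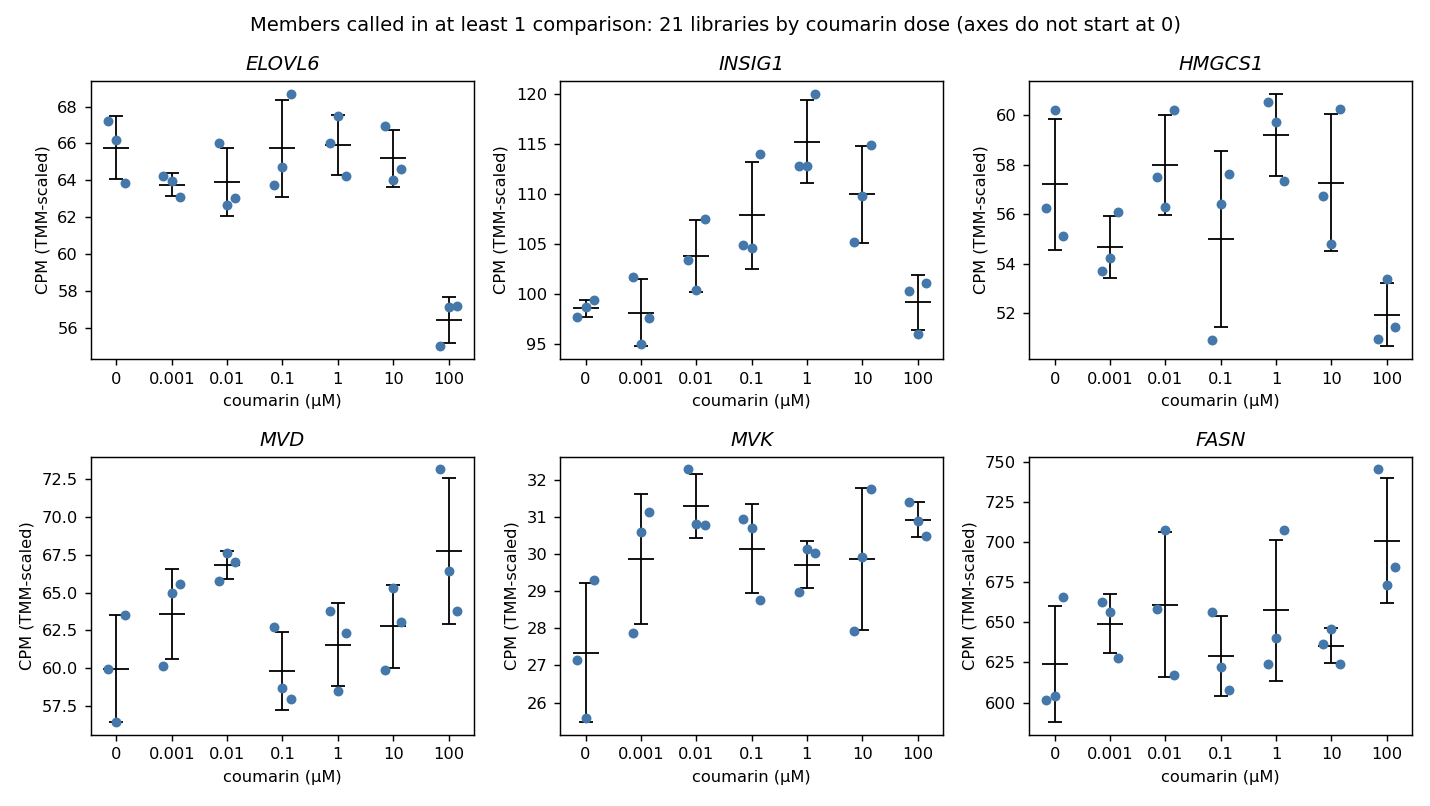
Level of the 6 members called in at least 1 comparison, in TMM-scaled CPM, for each of 21 libraries (dots) by coumarin dose, with the group mean and SD in black, on axes that do not start at 0. The 100 µM libraries of ELOVL6 (55.0 to 57.2 CPM) lie under all others, and INSIG1 is highest at 1 µM (112.8 to 120.0 CPM) and overlaps the controls at 100 µM.

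Among the regulators, SREBF2 encodes the SREBP that chiefly drives cholesterol genes. Its levels were 235.4, 224.4 and 249.7 CPM in the controls and 243.1, 233.8 and 248.0 CPM at 100 µM, and the groups overlapped. SREBF1, which encodes the SREBPs that favour fatty acid genes, read 170.3, 168.8 and 182.0 CPM in the controls and 184.4, 166.9 and 178.1 CPM at 100 µM, again with overlap. The log2 fold changes were 0.03 (95% interval -0.05 to 0.11) for SREBF2 and 0.02 (-0.09 to 0.13) for SREBF1. SREBF1 overlaps RAI1 (77.1 CPM) on the opposite strand, and whether the counting used strand is not given in the sources used here.

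SCAP, the escort protein that senses cholesterol, read 80.8, 77.6 and 84.0 CPM in the controls and 89.7, 84.3 and 86.6 CPM at 100 µM. The groups did not overlap, with a gap of less than 1 CPM, and the log2 change of 0.10 (SE 0.05) had an adjusted p of 0.183. STARD4, a carrier of sterol between membranes, had a log2 change of -0.09 (SE 0.06, adjusted p = 0.415). Of the 5 genes of this group none was called at any single dose against the controls.

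The mevalonate arm holds HMGCS1, MVK, PMVK, MVD, IDI1 and FDPS, of which 2 were higher at 100 µM (3.77% of all genes were), none lower (4.82%) and 4 not called. MVD decarboxylates mevalonate diphosphate to the isoprenoid unit. Its controls read 59.98, 56.4 and 63.5 CPM, and the 100 µM libraries 73.2, 66.4 and 63.8 CPM. The groups did not overlap, but the highest control and the lowest treated library differed by less than 1 CPM, and replicate 1 at 100 µM was the highest of the 3. The log2 fold change was 0.17 (SE 0.05, adjusted p = 0.0309). The call was lost without control replicate 1 or 2 or replicate 1 at 100 µM (adjusted p = 0.0818, 0.187 and 0.246), and the log2 fold change without the last was 0.12. At 0.01 µM MVD read 65.8, 67.65 and 67.0 CPM, also above all controls. Against the pooled libraries at 0.001 to 1 µM, MVD was not called at 100 µM. The highest log2 fold change of the 6 genes of this arm in that comparison was 0.11.

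MVK, the mevalonate kinase, read 27.1, 25.6 and 29.3 CPM in the controls and 31.4, 30.9 and 30.5 CPM at 100 µM. Its log2 change of 0.18 (SE 0.06) had an adjusted p of 0.048, at the edge of the threshold, and the call was lost under 19 of 31 other settings. MVK was as high at 0.01 µM, where it read 32.3, 30.8 and 30.8 CPM (log2 fold change 0.19, adjusted p = 0.544). Against the pooled 0.001 to 1 µM libraries, the 100 µM level differed by 0.03 log2 units (95% interval -0.06 to 0.12, adjusted p = 0.731). The controls, of which replicate 2 was lowest, were thus the low group for this gene. MVK overlaps MMAB on the opposite strand, which stood at 36.1 CPM and had a log2 change of 0.10 at 100 µM (adjusted p = 0.259).

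HMGCS1, the synthase that makes HMG-CoA, moved in the other direction. It read 56.3, 60.2 and 55.1 CPM in the controls and 51.0, 53.4 and 51.4 CPM at 100 µM, and the groups did not overlap. The log2 fold change was -0.14 (SE 0.05) with an adjusted p of 0.074, which did not pass. Against the pooled libraries at 0.001 to 1 µM it was -0.13 (SE 0.04, adjusted p = 0.0333). In that comparison HMGCS1 and ELOVL6 were the 2 members called lower and none was higher, where 9.83% of all genes were called, 5.58% lower and 4.25% higher. The HMGCS1 call was lost without 1 of 5 libraries, namely replicate 3 at 0.01 µM, replicate 1 at 1 µM or any of the 3 at 100 µM (adjusted p up to 0.187).

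The remaining mevalonate genes were not called at 100 µM. FDPS, which joins isoprenoid units into farnesyl diphosphate, had a log2 change of 0.08 (adjusted p = 0.167), PMVK one of 0.07 (adjusted p = 0.477) and IDI1, the isomerase, one of -0.02 (adjusted p = 0.843). The 6 enzymes of this arm spanned -0.14 to 0.18 on the log2 scale at this dose.

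From farnesyl diphosphate to lanosterol, FDFT1 (squalene synthase), SQLE (squalene epoxidase) and LSS (lanosterol synthase) changed by 0.02 to 0.07 at 100 µM. None of the 3 was called, where 8.58% of all genes were. SQLE read 97.8, 100.0 and 99.0 CPM in the controls and 106.9, 106.3 and 108.6 CPM at 1 µM, without overlap. That was a log2 change of 0.12 (SE 0.04, adjusted p = 1), which did not pass over all genes. SQLE also lay above all controls at 0.01 µM (102.8, 102.8 and 104.5 CPM) and at 10 µM (105.6, 102.7 and 105.9 CPM). At 0.001, 0.1 and 100 µM it overlapped them.

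Of the 8 enzymes that turn lanosterol into cholesterol, none was called at any dose against the controls, and at 100 µM all 8 log2 fold changes were positive, from 0.02 to 0.28. They were all positive at 0.01 and 10 µM too, whereas at 100 µM against the pooled libraries at 0.001 to 1 µM 5 were positive and 3 negative (median 0.02). CYP51A1, the lanosterol demethylase, read 17.3, 14.6 and 17.9 CPM in the controls and 20.04, 18.6 and 18.8 CPM at 100 µM. The groups did not overlap (log2 fold change 0.20, SE 0.09, adjusted p = 0.15). CYP51A1 was also above the controls at 0.01 µM, with 21.4, 19.7 and 18.5 CPM (0.25, SE 0.09, adjusted p = 0.544), but not at 0.1 µM, with 13.5, 16.5 and 18.1 CPM. It had no steady course with dose.

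TM7SF2 read 3.30, 3.18 and 4.24 CPM in the controls and 4.35, 4.40 and 4.28 CPM at 100 µM. Its log2 change of 0.28 (SE 0.13, adjusted p = 0.206) was the highest of the members and also the least precise. TM7SF2 lies on the same strand as VPS51, which overlaps it and stood at 97.7 CPM, so its low count is uncertain to that extent. The other 6 enzymes of this arm (MSMO1, NSDHL, HSD17B7, EBP, SC5D and DHCR7) had adjusted p-values of 0.185 to 0.873 at 100 µM. MSMO1, a sterol methyl oxidase, read 53.0, 51.2 and 50.2 CPM in the controls and was above all 3 at 0.1, 1 and 10 µM. The log2 fold changes of MSMO1 there were 0.13, 0.12 and 0.11 (adjusted p = 0.687, 1 and 0.307).

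Summed over the 17 cholesterol enzymes, the level was 1347 ± 36 CPM in the controls and 1396 ± 7 CPM at 100 µM (SD, n = 3). Between them the means lay from 1376 CPM at 0.1 µM to 1415 ± 11 CPM at 0.01 µM, so no order with dose was seen. Control replicate 2 was the lowest of the controls, at 1308 CPM, and control replicate 3 the highest, at 1380 CPM. The mean log2 deviation of the 17 genes from their mean over all libraries was -0.104 in control replicate 2, which also had the fewest reads, 27984517. Without control replicate 2, the median log2 fold change of the 31 members was 0.03 at 100 µM, in place of 0.04, and lay between 0.00 and 0.05 at the 5 lower doses. Without control replicate 3 it was 0.05 at 100 µM and lay between 0.04 and 0.08 at the 5 lower doses, over 1.5 times the value with all controls at each of the latter.

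Of the 31 members, 11 had their lowest group mean in the controls, where 16.9% of all genes did. At 100 µM, 8 members (25.8%) had all treated libraries above all controls, against 13.1% of all genes, and 3 members (9.68%) had all of them below, against 13.9%. The 3 below were ACACA, ELOVL6 and HMGCS1.

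The same reading was made at the lower doses. At 0.001 µM no member lay wholly above the controls (5.56% of all genes did) and 2, ACACA and SC5D, lay below (6.62%). At 0.01 µM, 6 members (19.4%) were above (7.35%), among them MVK, MVD, CYP51A1 and INSIG1, and none was below (7.25%). At 0.1 µM, 2 were above (4.46%) and 1, ACACA, below (4.53%).

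At 1 µM, 4 members (12.9%) lay wholly above the controls, namely INSIG1, MSMO1, SCD and SQLE (4.26% of all genes), and none below (3.93%). At 10 µM, 4 were above (8.78%) and 1, ACACA, below (7.9%). INSIG1 was the member found above at each of the 4 doses from 0.01 to 10 µM. MSMO1 was found above at 0.1, 1 and 10 µM, and SQLE at 0.01, 1 and 10 µM.

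In fatty acid synthesis the 4 genes ACLY, ACSS2, ACACA and FASN gave 1 higher, none lower and 3 not called at 100 µM, where 3.77% and 4.82% of all genes were higher and lower. FASN read 601.9, 604.3 and 665.7 CPM in the controls and 745.2, 672.9 and 684.2 CPM at 100 µM, without overlap. The log2 fold change was 0.17 (SE 0.05, adjusted p = 0.0344). The call was lost without control replicate 1 or 2 or without replicate 1 or 3 at 100 µM (adjusted p = 0.154, 0.158, 0.223 and 0.0545). Single libraries at 0.01 µM (707.4 CPM) and 1 µM (707.4 CPM) were above replicates 2 and 3 at 100 µM and below replicate 1.

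ACACA, the carboxylase that makes malonyl-CoA for FASN, lay wholly below the controls at 0.001, 0.1, 10 and 100 µM. At 100 µM it differed from the controls by -0.06 log2 units (SE 0.04, adjusted p = 0.373). ACLY and ACSS2 differed by 0.01 and -0.01 (adjusted p = 0.936 and 0.942). ACLY had a 95% interval of -0.06 to 0.08 and so was among the members measured most closely.

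Of the elongase and desaturases, ELOVL6 was lower at 100 µM (4.82% of all genes were), and SCD, FADS1 and FADS2 were not called. SCD had a log2 change of 0.05 (SE 0.03, adjusted p = 0.421), and FADS1 and FADS2, which desaturate polyunsaturated fatty acids, had -0.01 and -0.02 (adjusted p = 0.876 and 0.877). FADS1 and FADS2 overlap on opposite strands, and FADS2 also overlaps FEN1 (231.8 CPM) on its own strand, so the values of FADS2 (50.3 CPM) are uncertain to that extent. LPIN1 had 0.07 (SE 0.05, adjusted p = 0.449). Within this route, then, FASN and ELOVL6, which act in succession, were called in opposite directions, and the difference between their fold changes was not tested.

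**Figure D4:**
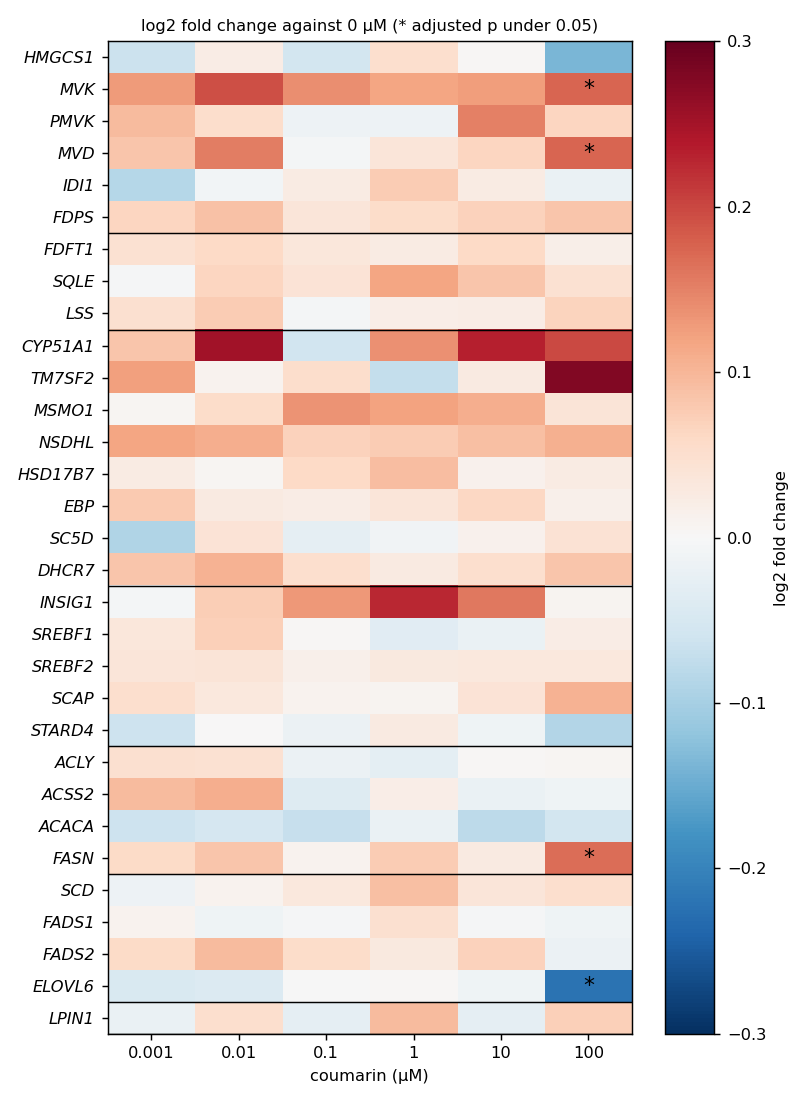
Log2 fold change of the 31 members (rows, by role) at 6 coumarin doses against 0 µM (columns), on a colour scale from -0.3 to 0.3, with a star where the adjusted p was under 0.05. The 4 stars all stand in the 100 µM column, INSIG1 is deepest red at 1 µM (0.23), and the columns share the same 3 control libraries.

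Neighbouring pathways were followed with 6 further gene lists. At 100 µM against the controls 8.58% of all genes were called. None of 13 other genes of cholesterol synthesis and SREBP processing was called there. Nor was any of 5 tested genes of LXR and sterol efflux or of 11 genes of the nonsterol isoprenoid branch. The median log2 fold changes of these lists were -0.01, 0.10 and 0.00. Against the pooled libraries at 0.001 to 1 µM, 1 of the 13 was higher at 100 µM. None of the 5 or of the 11 was called in that comparison (9.83% of all genes were). No gene of any of the 6 lists was called at a lower dose.

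In sterol uptake and trafficking no tested gene was lower at 100 µM against the controls, where 4.82% of all genes were. Against the pooled libraries at 0.001 to 1 µM, 1 of 13 tested genes was higher and 1 lower at 100 µM (4.25% and 5.58% of all genes were). STARD3, which moves cholesterol at late endosomes, read 31.5 ± 0.88 CPM in the controls and 36.2 ± 1.2 CPM at 100 µM (SD, n = 3). Its log2 change was 0.20 (SE 0.05, adjusted p = 0.0127). The means of STARD3 from 0.001 to 10 µM were 34.02, 34.15, 33.65, 33.66 and 33.23 CPM, all above that of the controls.

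Of 24 tested genes of other fatty acid and triglyceride synthesis, 2 were higher and 1 lower at 100 µM against the controls, beside 3.77% and 4.82% of all genes. Against the pooled libraries at 0.001 to 1 µM, 1 was higher and 1 lower at 100 µM (4.25% and 5.58% of all genes were). MID1IP1, a protein that promotes the polymerization of acetyl-CoA carboxylase, rose from 87.9 ± 4.5 to 115.9 ± 3.4 CPM. The libraries at 100 µM (113.5 to 119.8 CPM) lay above the controls (83.4 to 92.3 CPM) and above those of every other dose, whose highest was 104.6 CPM. Its log2 fold change was 0.40 (SE 0.05, adjusted p = 4.88e-06), and its slope among the treated libraries was also called (0.05 per step of 1 in log10 dose, adjusted p = 0.00156). This was a change larger than that of any member.

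MLX, a partner of the glucose-responsive factor ChREBP, fell from 87.8 ± 2.1 to 80.1 ± 1.7 CPM (-0.13, SE 0.04, adjusted p = 0.0344). ACSL1, a long-chain acyl-CoA synthetase, was barely expressed. It was at 0.345 ± 0.04 CPM in the controls (10 to 13 reads) and 0.739 ± 0.14 CPM at 100 µM (1.10, SE 0.35, adjusted p = 0.0455). From 0.001 to 10 µM its means were 0.568, 0.632, 0.486, 0.575 and 0.650 CPM, all above that of the controls. In fatty acid oxidation 1 of 17 tested genes was lower (4.82% of all genes were) and none higher: CPT1A, the carnitine transferase that admits fatty acids to mitochondria, fell from 72.3 ± 1.8 to 64.4 ± 3.2 CPM (-0.17, SE 0.04, adjusted p = 0.0103). Its level at 10 µM was 64.4 ± 0.56 CPM, a change of -0.17 that did not pass (adjusted p = 0.0677). At 0.001, 0.01, 0.1 and 1 µM the means of CPT1A were 67.8, 67.3, 67.6 and 67.8 CPM, all below that of the controls. Against the pooled libraries at these doses, none of the 17 was called at 100 µM (9.83% of all genes were). Each of the calls against the controls named from these lists, except that of MID1IP1, was lost without at least 1 library. For STARD3 it was control replicate 2 or replicate 2 at 100 µM (adjusted p = 0.0602 and 0.0699) and for CPT1A control replicate 2 or replicate 2 or 3 at 100 µM (0.0567, 0.0557 and 0.0829). MLX was lost under 9 of 31 settings (adjusted p up to 0.153) and ACSL1 under 13 of 29 (up to 0.158).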

How the data were processed

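RNA-seq of 21 cultures was deposited by the authors as gene counts and as FPKM values in 1 table of the whole series. HISAT2, DESeq2 and GRCh38 are named, per the submitters' processing notes; the sources used here do not give their versions, the counting tool, the strand setting or the annotation. The deposited counts were tested as they stand with edgeR 4.0.16 (R 4.3.3): filterByExpr, TMM factors, 1 quasi-likelihood fit of all 21 libraries with a coefficient per dose and robust estimation of the spread, and Benjamini-Hochberg adjustment over 16196 genes in each of 12 comparisons. A gene was called at an adjusted p under 0.05. A first fit without robust estimation had been run and its counts over all genes seen; the robust fit was then chosen because it gave the counts of an earlier account of these data, and the first is kept as an alternative. The deposited FPKM were used for levels and, with limma 3.58.1 on log2(FPKM + 1), as an alternative. DESeq2 1.42.0 was another.

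The members, gene lists and tests were chosen with earlier results of these data known. Named were members called in any comparison, the 6 with the smallest p at 100 µM, the regulators, and the 3 highest and 3 lowest in FPKM; genes of the lists were named where called against 0 µM or in the slope, up to 4 per list, and 1 result is not reported here. The promoters printed were chosen after the values were seen. With 27984517 to 43704155 reads per library, 3 reads were 0.0686 to 0.107 CPM. All 21 within-group pairs of libraries differed beyond counting error, with 2.69 to 12.3 for chi-square divided by its degrees of freedom. The tests were checked on simulated counts, drawn with the spread fitted to these same data, so that spread itself was not checked.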

Additional observations from a re-analysis of the deposited data

How the results depend on the processing

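The counts of members called were recomputed under 31 other settings (30 for the 7 groups, which already use all libraries), of which 21 left out 1 library each. No member's direction was reversed among the values compared. At 0.001, 0.01 and 0.1 µM, in the pooled low doses against 0 µM and in 10 µM against the pooled low doses, the count stayed at 0 in every setting. At 1 and at 10 µM it was 1, INSIG1, with DESeq2 and with no filter on low counts. At 100 µM against 0 µM it was 1 in place of 4 with limma on log2(FPKM + 1) and on log2(FPKM + 0.1), ELOVL6 alone, and 3 with no filter and with only the libraries compared (MVK lost, adjusted p = 0.0708 and 0.0555). At 100 µM against the pooled low doses it was 3 in place of 2 with no filter (FASN added) and with both limma fits (INSIG1 added, adjusted p = 0.0454 and 0.0458). In the slope it was 1, ELOVL6, with DESeq2, both limma fits, a minimum of 1 CPM in 3 libraries and an offset for gene length. Among the 7 groups it was 4 in place of 2 with DESeq2 and 5 with no filter. The cause was not tested in any of these.

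Leaving out 1 library at a time, the count ranged from 0 to 0 in those 5 comparisons and at 1 µM, from 0 to 1 at 10 µM and in the slope, from 1 to 5 at 100 µM against 0 µM, from 1 to 4 at 100 µM against the pooled low doses, from 1 to 3 among the 7 groups and from 1 to 4 among the 6 treated groups. The counts of 1 at 100 µM against 0 µM came without control replicate 1 or 2 or replicate 1 at 100 µM, a count of 2 without replicate 3 at 100 µM, and the count of 5 without replicate 1 at 0.1 µM, which added HMGCS1 (adjusted p = 0.0402), or without control replicate 3, which added FDPS. Against the pooled low doses, the count of 1 came without the 5 libraries given above for HMGCS1, 3 without replicate 2 at 0.01 µM, and 4 without replicate 1 at 0.1 µM or replicate 3 at 1 µM. In both tests among groups the count of 1 came without replicate 1 at 100 µM; the highest, 3 among the 7 groups, came without control replicate 3, replicate 1 or 3 at 0.1 µM or replicate 2 at 10 µM, and 4 among the treated groups without replicate 1 at 0.1 µM. INSIG1 at 10 µM and ELOVL6 in the slope were called without replicate 1 at 0.1 µM. These fits tested more genes, since the filter then asks for fewer libraries. Over all genes the calls at 100 µM against 0 µM were 1390, 1211 to 1545 under the 10 other settings and 699 to 1822 without 1 library; at 10 µM they were 52, 17 to 302 and 7 to 164.

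The replicate numbers in the titles did not pair the libraries: over 63 same-numbered pairs the deviations correlated at -0.095 to 0.0751, and 8 of 21 libraries correlated best with their own number. With the number as a replicate block, 3 members in place of 4 were called at 100 µM against 0 µM (MVK at an adjusted p of 0.0545) and 3 in place of 2 against the pooled low doses (INSIG1 added). Without robust estimation of the spread, an alternative added after the data were seen, MVK was also lost (0.0502), leaving 3. ELOVL6 at 100 µM was called in all 31 settings in both comparisons. Low counts limit the precision of TM7SF2 (91 to 176 reads) and ACSL1.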
